A study of Homo sapiens with 6 samples.

Results

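The genes described here are the 46 members of a list of autophagy machinery and receptors, taken by gene symbol from the 65746 genes of the count table. The rule uses gene names and no measured value, but the list was drawn up when earlier results of these data were known. All 46 were found. The cells were SU-DHL-8, an established human diffuse large B-cell lymphoma line labelled as wild type, grown in medium with serum. One group of 3 libraries came from cells given beta-sitosterol, a plant sterol, at 15 µM for 24 h, and the other 3 came from cells given an equal concentration of DMSO, the solvent, for the same time. The labels number the replicates without saying that they came from separate cultures, so p-values measure only the spread between these libraries, which may be technical. The data are for 1 cell line, 1 dose and 1 time.

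Macroautophagy encloses cytoplasm in a double membrane and delivers it to the lysosome. A kinase complex built around ULK1 starts the process, a class III phosphatidylinositol 3-kinase complex built around PIK3C3 and BECN1 marks the membrane with a lipid, and lipid transfer and scramblase proteins extend it. Small ubiquitin-like proteins of the ATG8 group (the LC3 and GABARAP genes) are then attached to the membrane by conjugation enzymes, and cargo receptors such as SQSTM1 bind both ATG8 proteins and the material to be removed. Transcript levels do not measure the flow of material through this route.

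Totals ran from 26453281 to 35565620 counts per library, and 57180 to 64925 counts in DMSO and 54079 to 60216 in treated libraries fell on the 46 members. The labelled B-cell identity was checked on markers. The 9 B-cell markers summed to between 4890 and 5800 CPM (counts scaled to a common library size) in every library, although IGHM was listed at 0. CD74 made up most of this sum, with 2798 to 3748 CPM, and single markers moved apart. PAX5 fell by 1.67 on the log2 scale, while MS4A1 and CD79A rose by 2.23 and 1.05 (edgeR adjusted p = 8.07e-05, 1.11e-04 and 5.35e-04). T-cell markers summed to at most 2.05 CPM, with CD3E, CD3G and CD2 at 0 in all libraries. Myeloid, stromal and epithelial markers summed to at most 8.4, 6.62 and 0.909 CPM. DMSO libraries varied more than treated ones. The median SD of log2 CPM over the tested members was 0.23 in DMSO and 0.07 in treated cells. The DMSO library farthest from its group mean was replicate 1 for 5 tested members, replicate 2 for 19 and replicate 3 for 20. In bulk RNA a change in the mix of cells and a change in RNA per cell cannot be told apart.

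After beta-sitosterol 5 of 6 cargo receptors and 3 of 5 ATG8 genes were called higher, against 19.0% of all tested genes. ULK1 of the initiation complex and AMBRA1 and UVRAG of the lipid kinase complex were called lower, against 21.8% of all tested genes. ULK3, listed in the same group as ULK1, was called higher. Only 3 receptors were called higher, and UVRAG was not called, without DMSO replicate 1 or any 1 treated replicate. Of the 46 members, 44 had enough counts to be tested. With edgeR's quasi-likelihood test and Benjamini-Hochberg adjustment over all 11525 tested genes, at a threshold of 0.05, 12 members rose and 6 fell. Across all tested genes 40.8% were called, 19.0% higher and 21.8% lower. Among tested members 40.9% were called, 27.3% higher and 13.6% lower, so the share called was near that of all genes. The median log2 fold change was 0.01 over the tested members and -0.04 over all genes. Of the called members, 4 rose and 1 fell by 2-fold or more, against 9.09% and 6.37% of all genes. All 3 treated libraries lay above all 3 DMSO libraries for 17 members and below them for 10, against 27.0% and 29.1% of all tested genes (56.1% in either direction).

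Counts by role were as follows. Of 6 tested cargo receptors 5 rose and 0 fell, with a median log2 fold change of 0.66. Of 4 tested ATG8 genes 3 rose and 0 fell, with a median of 0.65. In the lipid kinase complex 0 of 6 rose and 2 fell, with a median of -0.16. The initiation complex, the membrane and phosphoinositide group and the conjugation genes each had 1 gene higher and 1 lower, of 5, 7 and 10 tested. Of 4 mitophagy genes 1 rose, and of 2 fusion genes 1 fell. No test compares these groups with other genes, and the counts are small.

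**Figure D1:**
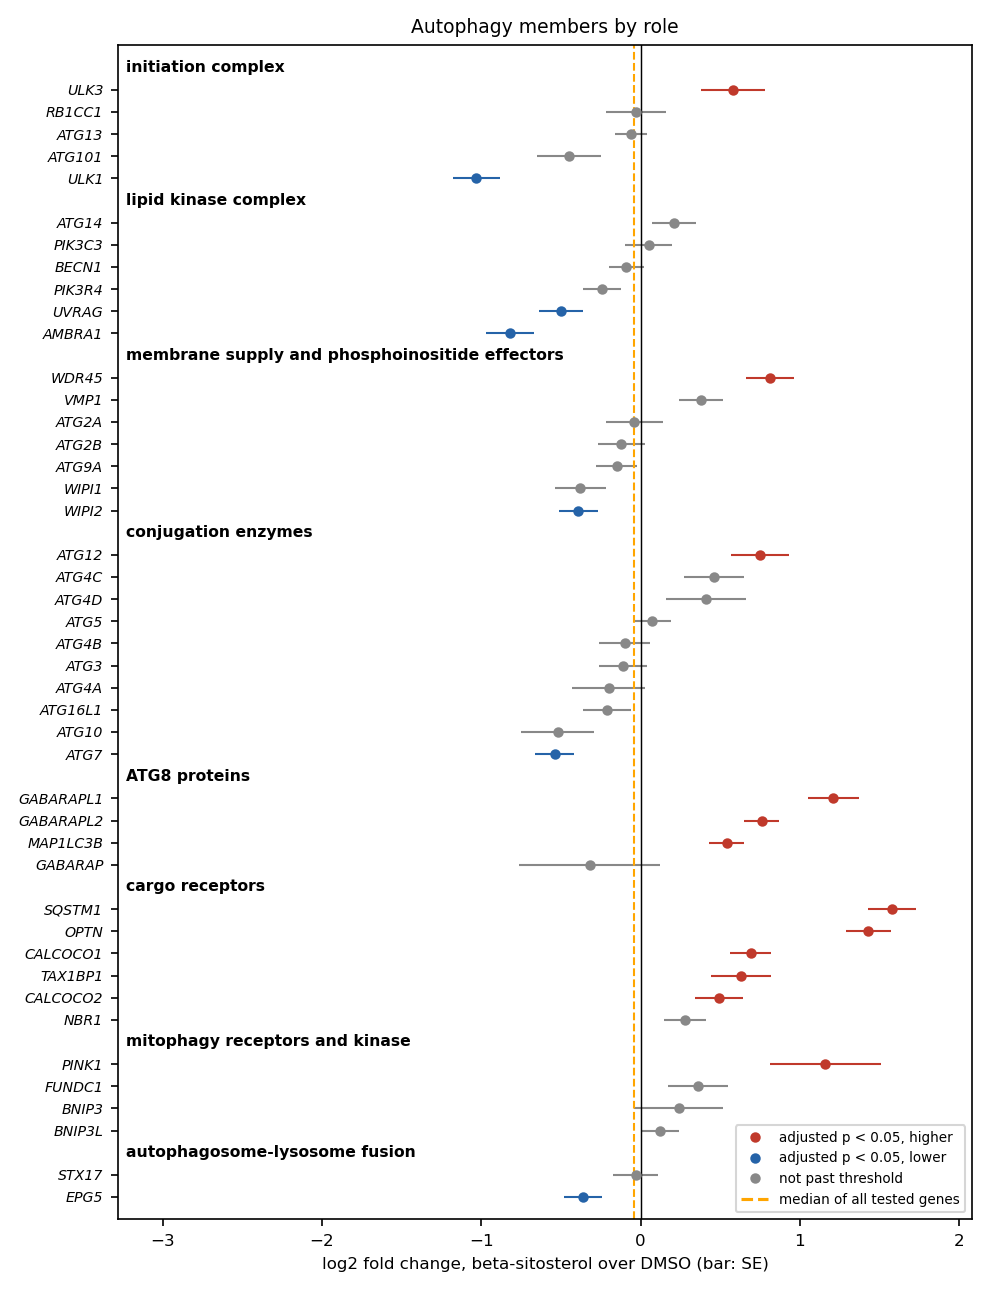
Log2 fold change (beta-sitosterol over DMSO, edgeR) of the 44 tested members on the x axis, ordered within 8 role groups, with bars of 1 standard error (SE); red and blue points passed the adjusted p threshold of 0.05, grey points did not, and the dashed line is the median of all tested genes. All 6 cargo receptors lie right of 0, and 5 of them are red.

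Among the cargo receptors, SQSTM1, which encodes p62 and carries ubiquitin-tagged material into autophagosomes, had the largest rise of all members. Its 3 DMSO libraries stood at 56.7, 43.8 and 63.9 CPM and its treated libraries at 168, 160 and 163 CPM. Every treated library lay above every DMSO library, by more than the spread within either group (54.8 ± 10.2 against 164 ± 4.03 CPM, SD, n = 3 per group). The log2 fold change was 1.58 ± 0.15 (SE; edgeR adjusted p = 2.41e-04), a 2.98-fold rise, at percentile 95.8 of the fold changes of all tested genes. SQSTM1 (ENSG00000161011) spans 179806393 to 179838078 on chromosome 5 in RefSeq's GRCh38.p14 annotation and overlaps MGAT4B and MRNIP, the latter listed at 0. MGAT4B rose as well, by 0.84 on the log2 scale (edgeR adjusted p = 0.00183), from 31 to 41.1 CPM in DMSO to 62.5 to 64.9 CPM. Whether counting used strand is not given in the sources used here, so reads in the overlap cannot be assigned with certainty.

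OPTN encodes optineurin, a receptor for ubiquitin-tagged bacteria and mitochondria. It stood at 14.5, 16.9 and 13.7 CPM in DMSO and at 37, 43.9 and 40.6 CPM in treated libraries. Its rise of 1.43 ± 0.14 on the log2 scale (edgeR adjusted p = 2.44e-04) was 2.7-fold. SQSTM1 and OPTN kept their calls in all 17 alternative analyses.

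The other receptors changed by smaller amounts. CALCOCO1, a receptor for the endoplasmic reticulum and Golgi, stood at 19.6, 23.8 and 22 CPM in DMSO and 36.7, 34.8 and 34.3 CPM after treatment (log2 fold change 0.69 ± 0.13, edgeR adjusted p = 0.00331). TAX1BP1, which binds ubiquitin-tagged aggregates, stood at 66.9, 81.1 and 46.6 CPM and then at 102, 103 and 94.7 CPM (0.63 ± 0.19, edgeR adjusted p = 0.03). The groups did not overlap for either gene, but the DMSO libraries of TAX1BP1 were spread widely, with replicate 3 lowest. CALCOCO2, which encodes NDP52, stood at 35.1, 46.1 and 32.6 CPM and then at 50.3, 55.8 and 53.9 CPM (0.49 ± 0.15, edgeR adjusted p = 0.0321). TAX1BP1 and CALCOCO2 missed the threshold without DMSO replicate 1 (edgeR adjusted p = 0.0835 and 0.108) and without any 1 of the treated replicates (0.0708 to 0.096 and 0.079 to 0.12). Without those libraries 3 receptors were called higher instead of 5. NBR1, a receptor related to SQSTM1, had all treated values above the DMSO values (30.8 to 33.9 against 24.6 to 29.8 CPM) but did not pass (log2 fold change 0.28 ± 0.13, edgeR adjusted p = 0.109). Without DMSO replicate 2 it passed, at 0.36 with an adjusted p of 0.0126.

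Among the ATG8 genes, GABARAPL1 had the largest rise. It stood at 5.28, 4.05 and 5.11 CPM in DMSO and at 11.3, 10.8 and 11.5 CPM in treated libraries, a rise of 1.21 ± 0.16 in log2 units (edgeR adjusted p = 8.07e-04) or 2.32-fold. GABARAPL2, whose product is also known as GATE-16, stood at 39.8, 40.7 and 38.2 CPM and then at 67.5, 68.3 and 64.7 CPM (0.76 ± 0.11, edgeR adjusted p = 0.00108). MAP1LC3B, the LC3 gene most used as an autophagosome marker, stood at 95.7, 102 and 88.2 CPM and then at 143, 139 and 134 CPM (0.54 ± 0.11, edgeR adjusted p = 0.00575). For these 3 genes the 2 groups were well apart and the libraries within a group close together. MAP1LC3B and GABARAPL2 lost their calls on the scale of the deposited TPM (scaled for gene length and library), described below, with log2 fold changes of 0.28 and 0.49 on log2(TPM + 1).

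The remaining ATG8 genes were scarce in this count table. GABARAP had 12 to 28 counts per DMSO library and 8 to 15 per treated library, 0.522 ± 0.248 and 0.418 ± 0.114 CPM, and did not pass (log2 fold change -0.32 ± 0.44, edgeR adjusted p = 0.583). It lay at percentile 3.79 of tested genes by mean CPM. Whether this low count comes from the cells or from the annotation and counting was not tested, and the same holds for its part in sums and shares of the ATG8 group. It overlaps PHF23, which stood at 48.8 to 53.3 CPM in DMSO and 34.5 to 38.5 CPM after treatment. MAP1LC3A had 2 to 10 counts in DMSO and 1 to 4 in treated libraries and was not tested. The near-identical gene MAP1LC3B2 had 16 to 43 counts in DMSO and 39 to 51 in treated libraries, and the listed pseudogenes of MAP1LC3B, SQSTM1 and BNIP3 were at 0 in all 6. How reads that fit several places were handled is not given in the sources used here, so counts of genes with such copies are uncertain.

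**Figure D2:**
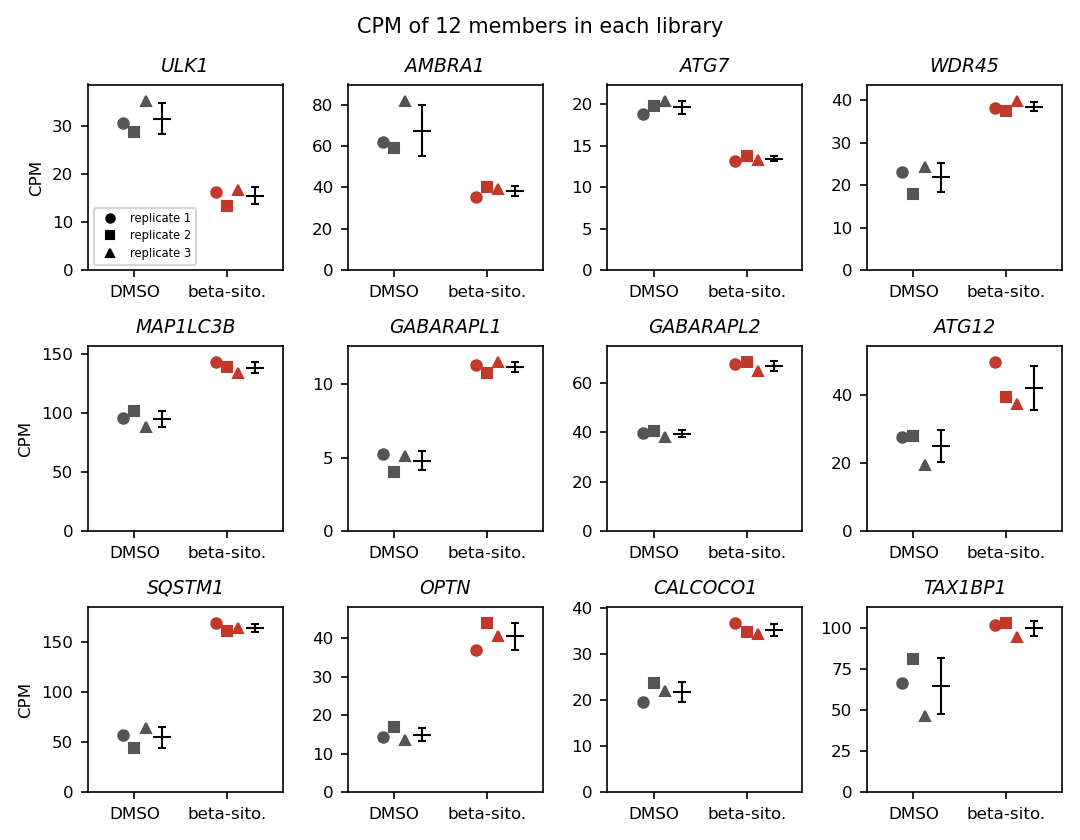
CPM (y axes, each from 0) of 12 members in the 3 DMSO and 3 beta-sitosterol libraries, one symbol per replicate number, with the mean and SD as a bar beside the points. ULK1, AMBRA1 and ATG7 are lower and the other 9 genes higher in every treated library than in every DMSO library.

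Levels of different genes can be set side by side only per length. For this, CPM was divided by each gene's length as the ratio of deposited counts to TPM gives it, relative to the median tested gene. These implied lengths were not checked against transcripts, and the level order, the sums and the length trend below rest on them. MLST8, with a short gene span, stood at 3.07, and MTOR, with a far longer span, at 1.51. On this scale ATG101, ATG3 and MAP1LC3B were the 3 highest members in DMSO (149 ± 43.6, 118 ± 22.1 and 117 ± 8.65, SD, n = 3), and these neighbours did not differ beyond their spread. In treated cells MAP1LC3B and GABARAPL2 led with 171 ± 5.35 and 154 ± 4.44, followed by SQSTM1 and ATG3 at 110 ± 2.72 and 110 ± 4.99. SQSTM1 moved from place 11 to place 3 and ULK1 from 17 to 30. Summed over the 6 receptors, the per-length level was 121, 131 and 116 in DMSO and 244, 246 and 242 after treatment. Summed over the ATG8 genes it was 214, 223 and 202, then 339, 336 and 322. The shares of MAP1LC3B, GABARAPL2 and GABARAPL1 within the ATG8 group moved by a few percentage points or less, with no overlap between groups. MAP1LC3B held 55 ± 1.39% in DMSO and 51.3 ± 0.397% in treated cells, GABARAPL2 42.8 ± 0.719% and 46.3 ± 0.475%, and GABARAPL1 1.32 ± 0.231% and 1.96 ± 0.105%.

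**Figure D3:**
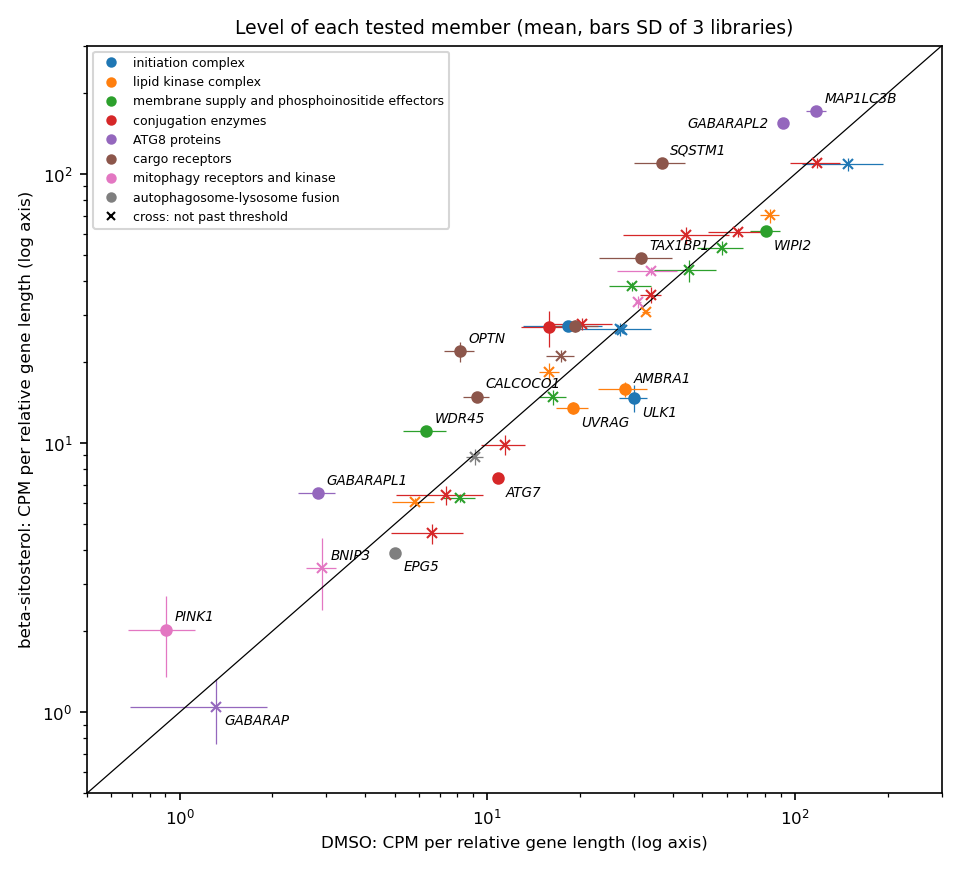
Per-length level (CPM divided by relative gene length, log axes) of the 44 tested members, DMSO on the x axis and beta-sitosterol on the y axis, as means with SD of 3 libraries; circles passed the threshold, crosses did not, and the line marks equal levels. MAP1LC3B and GABARAPL2 are at the top right, SQSTM1 (36.9 and 110) and OPTN (8.14 and 21.9) lie above the line, and ULK1 (29.9 and 14.7) lies below it.

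Among the genes listed under the initiation complex, the kinase genes ULK1 and ULK3 were called in opposite directions, ULK3 only narrowly. ULK1, the kinase that starts autophagosome formation, stood at 30.8, 28.9 and 35.2 CPM in DMSO and at 16.4, 13.5 and 16.7 CPM in treated libraries. The log2 fold change was -1.03 ± 0.15 (SE) with an edgeR adjusted p of 0.00104, a fall to 0.49 of the DMSO level, with no overlap between groups, and kept this call in all 17 alternatives. ULK3, a related kinase, stood at 48.8, 32 and 58.1 CPM and then at 68.4, 68.8 and 70.5 CPM, a rise of 0.58 ± 0.20 that passed narrowly (edgeR adjusted p = 0.0481). Without DMSO replicate 1 or any 1 treated replicate ULK3 missed the threshold (adjusted p from 0.107 to 0.127). ULK2 had 3 counts in 1 treated library and 0 elsewhere and was not tested. The scaffold genes ATG13 and RB1CC1 (which encodes FIP200) had log2 fold changes of -0.06 ± 0.10 and -0.03 ± 0.19, not past the threshold. ATG101, which stabilises ATG13, stood at 81.9, 55.8 and 102 CPM and then at 58.5, 55.2 and 61.7 CPM. It was not past the threshold (edgeR adjusted p = 0.109), but was called lower without DMSO replicate 2 (log2 fold change -0.66, adjusted p = 1.07e-04).

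In the lipid kinase complex the core subunits showed little change and 2 regulators fell. AMBRA1, a scaffold that links the complex to ULK1 and to ubiquitin ligases, stood at 61.7, 59.1 and 81.5 CPM in DMSO and 35.5, 40.3 and 39.1 CPM after treatment. It fell by 0.82 ± 0.15 on the log2 scale (edgeR adjusted p = 0.00355), in all 17 alternatives. UVRAG, a subunit of the complex form that acts in endosome and autophagosome maturation, stood at 29.1, 24.9 and 23 CPM and then 17.2, 18.5 and 18.9 CPM, falling by 0.50 ± 0.14 (edgeR adjusted p = 0.02). UVRAG missed the threshold without DMSO replicate 1 (0.0626) or any 1 treated replicate (0.0666 to 0.0965). BECN1 stood at 62.9, 62.4 and 66 CPM and then 60.1, 58.9 and 60.9 CPM, a log2 difference of -0.09 ± 0.11 (edgeR adjusted p = 0.529). Its treated values lay just below the DMSO values. PIK3C3, the catalytic subunit, ATG14, which directs the complex to autophagosomes, and PIK3R4, the regulatory subunit, had log2 fold changes of 0.05, 0.21 and -0.24 and did not pass (edgeR adjusted p = 0.796, 0.255 and 0.134).

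Among the genes of membrane supply and lipid binding, WDR45, a protein of the WIPI family that binds phosphoinositides, rose. It stood at 23.2, 17.9 and 24.4 CPM in DMSO and 38.2, 37.5 and 39.7 CPM after treatment (log2 fold change 0.81 ± 0.15, edgeR adjusted p = 0.00314). WIPI2, which recruits the conjugation machinery, stood at 151, 131 and 165 CPM and then 114, 112 and 116 CPM, a fall of 0.39 ± 0.12 (edgeR adjusted p = 0.0328). WDR45 missed the threshold only on the TPM scale, whereas WIPI2 missed it in 10 of 17 alternatives, among them those without any 1 library except DMSO replicate 2 (adjusted p from 0.0702 to 0.134). VMP1, a scramblase of the endoplasmic reticulum, was at 0.38 ± 0.14 (edgeR adjusted p = 0.0632), with all treated values above DMSO. Without DMSO replicate 2 it passed (0.44, adjusted p = 0.00599). The lipid transfer genes ATG2A and ATG2B, the scramblase gene ATG9A and WIPI1 had log2 fold changes of -0.04, -0.12, -0.15 and -0.38 and did not pass.

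Of the 10 genes listed under conjugation enzymes, not all of which encode enzymes, 8 did not pass. ATG7, the E1-like enzyme that activates both ubiquitin-like systems, stood at 18.8, 19.7 and 20.3 CPM in DMSO and 13.2, 13.8 and 13.3 CPM in treated libraries. It fell by 0.54 ± 0.12 on the log2 scale (edgeR adjusted p = 0.00775), in all 17 alternatives. ATG7 overlaps VGLL4, which fell by 1.44 (edgeR adjusted p = 2.36e-04), from 28.9 to 35.1 CPM in DMSO to 11.5 to 12.9 CPM, and reads in the overlap cannot be assigned with certainty. ATG12, the ubiquitin-like protein joined to ATG5, stood at 27.6, 28 and 19.5 CPM and then 49.6, 39.4 and 37.5 CPM, a rise of 0.75 ± 0.18 (edgeR adjusted p = 0.0116). Treated replicate 1 was the highest library for ATG12, and without it the rise was 0.62 and missed the threshold (adjusted p = 0.0603). ATG5 itself stood at 73.1, 70.2 and 62.3 CPM and then 67.7, 77.3 and 70.1 CPM, with overlapping groups (log2 fold change 0.07 ± 0.12, edgeR adjusted p = 0.69). The protease genes ATG4A, ATG4B, ATG4C and ATG4D had log2 fold changes of -0.20, -0.10, 0.46 and 0.41. The E2-like genes ATG3 and ATG10 stood at -0.11 and -0.52, and ATG16L1, which places the conjugation complex on the membrane, at -0.21. Without DMSO replicate 2, ATG4C was called higher and ATG4B, ATG10 and ATG16L1 lower (edgeR adjusted p = 0.00571, 0.0356, 0.00219 and 0.0221).

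Of the 4 mitophagy genes PINK1 and BNIP3 had low counts. PINK1, the kinase that marks damaged mitochondria, had 15 to 26 counts in DMSO and 27 to 48 in treated libraries, 0.763, 0.471 and 0.577 CPM against 0.916, 1.82 and 1.35 CPM. Its log2 fold change of 1.16 ± 0.35 passed (edgeR adjusted p = 0.0278) but missed the threshold without DMSO replicate 3 (0.0541), treated replicate 2 (0.122) or treated replicate 3 (0.0767). BNIP3, a hypoxia-responsive mitophagy receptor, stood at 1.67, 2.07 and 1.79 CPM and then 1.43, 2.57 and 2.55 CPM, with overlapping groups (0.24 ± 0.28, edgeR adjusted p = 0.515). The related receptor gene BNIP3L and FUNDC1, a receptor of the outer mitochondrial membrane, had log2 fold changes of 0.12 and 0.36 (edgeR adjusted p = 0.45 and 0.155). In the fusion group EPG5, a tether between autophagosomes and lysosomes, stood at 16.9, 17.8 and 16.7 CPM and then 13.6, 13.4 and 12.9 CPM, a fall of 0.36 ± 0.12 (edgeR adjusted p = 0.0434). EPG5 missed the threshold in 12 of 17 alternatives, and its log2 fold change was -0.05 once a trend with gene length was removed. STX17, the autophagosomal SNARE, was at -0.03 ± 0.14 (edgeR adjusted p = 0.877).

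Without DMSO replicate 2, 26 members were called, 16 higher and 10 lower, and these held all 18 of the main analysis. Leaving out DMSO replicate 1, or any 1 treated replicate, gave 9 or 8 higher and 3 lower. The calls over all genes moved in the same way. They went from 4697 of 11525 tested to 6640 of 11724 without DMSO replicate 2. Without DMSO replicate 1 they were 3819 of 11715, and without any 1 treated replicate 3094 to 3161. On log2(TPM + 1) 3 rose and 3 fell (SQSTM1, OPTN and GABARAPL1 against ULK1, AMBRA1 and ATG7), and the share of member calls that were higher went from 66.7% to 50%, against 46.5% and 24.3% over all genes. On log2(TPM + 0.1) 2 rose and 3 fell (40% higher), and with the trend over gene length removed 14 rose and 4 fell (77.8% higher). The median of all genes lay at -0.19 on log2(TPM + 1) and -0.26 on log2(TPM + 0.1), and that of the members at -0.18 and -0.22. With the length trend removed these medians were 0.01 and 0.12. The listed TPM summed to between 39.5% (DMSO replicate 2) and 69.2% (DMSO replicate 3) of a full TPM total. Fold changes also ran with gene length over all tested genes (Spearman's rho -0.23 across genes, which are not independent), and short genes were called higher more often than long ones (26.9% against 11.9%, in the shortest and longest of 3 equal groups). Over the tested members rho was 0.02, and 9 of the 12 members that rose, all 5 called cargo receptors among them, belonged to the longest group. That group held 23 of the 44 tested members, with all 6 cargo receptors and 4 of the 6 members that fell.

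Promoters of members were searched for letters bound by factors known from autophagy and stress genes, in RefSeq windows (GRCh38.p14) from 250 bases before to 50 after the start, on both strands. A window was given for 37 of 46 members, not for RB1CC1, UVRAG, ATG4D, MAP1LC3A, CALCOCO1, BNIP3L, PINK1, EPG5 and STX17. The core of the antioxidant response element, TGACNNNGC, was found in 4 of the 37, against 13.6% of all 27305 promoters. The E-box CACGTG was found in 4 (7.43% of all), and the longer TCACGTGA, which holds the E-box and forms the centre of the element bound by TFEB, in ATG3 alone (1.04% of all). The AP-1 letters TGANTCA were found in 0 (7.76% of all) and the FOXO letters GTAAACA in CALCOCO2 alone (3.41% of all). Over promoters of tested genes the shares were lower for AP-1 and FOXO, at 4.46% and 2.34%, and higher for TCACGTGA, at 2.04%. The antioxidant element core was in 3 of the 10 members with a window that rose and in 0 of the 4 that fell. ATG101, which also held it, did not pass, and ULK3, among the 3, lost its call in 6 of 17 alternatives. Whether the core goes with the calls was not tested. The 4 stretches with this core were picked with the calls known. Capitals mark the match, each is written 5′ to 3′ on the strand of the gene, and every base lies before the start.

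MAP1LC3B, chr16:87392260-87392328, plus strand, match beginning at position -46 from the start: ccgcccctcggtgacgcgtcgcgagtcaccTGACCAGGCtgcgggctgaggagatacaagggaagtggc
CALCOCO2, chr17:48830876-48830944, plus strand, match on the opposite strand beginning at -129: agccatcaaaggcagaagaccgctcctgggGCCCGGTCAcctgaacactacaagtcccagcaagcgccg
ULK3, chr15:74843258-74843326, minus strand, match beginning at -140: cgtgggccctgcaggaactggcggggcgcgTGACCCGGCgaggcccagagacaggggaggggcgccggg
ATG101, chr12:52069828-52069896, plus strand, match beginning at -120: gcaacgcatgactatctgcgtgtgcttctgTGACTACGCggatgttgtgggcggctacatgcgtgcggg

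The antioxidant element core was in 10.8% of the member promoters, against 13.6% of all promoters and 15.3% of those of tested genes. The E-box was in 10.8% of member promoters, against 10.4% for tested genes. The ATG101 window lies inside the gene's annotated span, which begins at 52065300 on chromosome 12. A match is a description of letters only. SQSTM1, OPTN and GABARAPL1, the members with the largest rises among those with a window, held none of the 5 motifs in it.

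A wider list of 94 other genes of the pathway, of which 84 were tested, split evenly with 14 higher and 14 lower (33.3% called, against 40.8% of all genes). Of 32 tested genes of nutrient and energy signalling, not all of them kinase genes, 7 rose and 6 fell. The genes that fell include subunits of mTORC1, the kinase that holds autophagy back, and also TSC1 and STK11, which restrain mTORC1 (edgeR adjusted p = 0.0453 and 0.0458). Both of these passed narrowly. STK11 stood at 203, 124 and 255 CPM in DMSO and 124, 116 and 125 CPM after treatment, with overlapping groups. RPTOR, the scaffold subunit of mTORC1, went from 92.2 ± 11.3 to 32.3 ± 1.94 CPM (SD, n = 3). It fell by 1.51 ± 0.13 on the log2 scale (edgeR adjusted p = 1.69e-04). MTOR went from 223 ± 6.42 to 147 ± 4.86 CPM (edgeR adjusted p = 0.00253). EIF4EBP1, a translation repressor that mTORC1 phosphorylates, rose from 52.3 ± 10 to 89.8 ± 3.89 CPM (edgeR adjusted p = 0.00429). RHEB, the activator of mTORC1, was at 87.1 ± 24.2 and 75.9 ± 3.02 CPM (edgeR adjusted p = 0.421).

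Of 11 tested transcription factors and coregulators of autophagy genes 1 rose and 2 fell. TFE3 rose from 24.8 ± 1.52 to 34.5 ± 0.91 CPM (edgeR adjusted p = 0.0125), a call lost when any 1 treated replicate was left out (0.0576 to 0.067). Its relative TFEB stood at 171, 138 and 215 CPM in DMSO and 137, 126 and 131 CPM after treatment and did not pass (log2 fold change -0.41 ± 0.16, edgeR adjusted p = 0.0779). Without DMSO replicate 2 TFEB was called lower (-0.56, adjusted p = 2.27e-04). FOXO1 and TP53INP2, a nuclear regulator that also binds ATG8 proteins, fell by 0.68 and 0.61 on the log2 scale (edgeR adjusted p = 0.0171 and 0.0167). FOXO1 missed the threshold without any 1 treated replicate (0.0519 to 0.0694) and TP53INP2 without treated replicate 1 or 2 (0.0668 and 0.082).

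Among 12 tested selective receptors outside the member list 4 rose and 1 fell. FKBP8, an outer mitochondrial membrane receptor, went from 231 ± 89.4 to 526 ± 16 CPM, and RTN3, a receptor for tubular endoplasmic reticulum, from 112 ± 13.7 to 207 ± 2.92 CPM (edgeR adjusted p = 0.00709 and 9.49e-04). TRIM5 fell by 0.81 on the log2 scale (edgeR adjusted p = 0.00657). Of 15 tethering and fusion genes 1 rose and 4 fell. VPS18 and VPS41, subunits of the HOPS tether, fell by 1.12 and 0.50 on the log2 scale, and PLEKHM1, an adaptor that binds HOPS, by 0.66 (edgeR adjusted p = 0.00141, 0.0164 and 0.00538). VPS41 missed the threshold without DMSO replicate 1 (0.0564) or treated replicate 1 or 3 (0.0805 and 0.0832). Of 14 other core and accessory genes TMEM41B, a scramblase that acts with VMP1, rose by 0.94 and TECPR2 fell by 1.26 (edgeR adjusted p = 0.00206 and 3.06e-04). Leaving out DMSO replicate 2 raised the count of calls in this list to 48, 27 of them higher, and leaving out any 1 treated replicate lowered it to 16. Over all genes the same steps took the calls from 4697 to 6640 and to between 3094 and 3161.

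**Figure D4:**
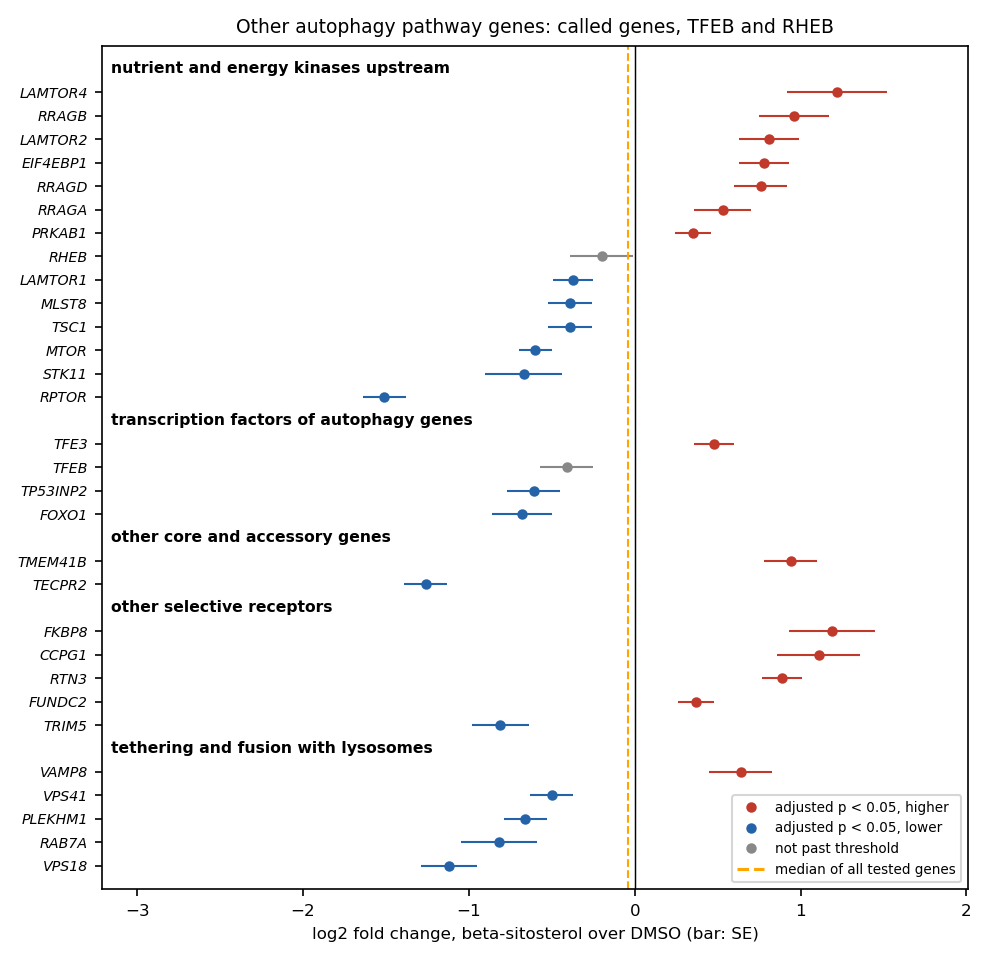
Log2 fold change with SE (x axis, edgeR) of the 28 other pathway genes that passed the threshold, with TFEB and RHEB added in grey, by sub-list; the dashed line is the median of all tested genes. The 14 genes that rose and the 14 that fell include both directions in every sub-list.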

How the data were processed

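RNA of 6 libraries was sequenced, and the authors deposited a table of read counts and a table of TPM (transcript abundance scaled for gene length and library) for each gene and library. Per the submitters' processing notes the tools included STAR 2.7.10, StringTie 2.2.1, featureCounts 2.0.1 and fastp 0.23.2, with build GRCh38 (hg38). The sources used here do not give the strand setting or the handling of multiply mapped reads. The deposited counts were whole numbers per gene. Deposited TPM were per gene length, and each count to TPM ratio lay within 1% of a gene constant times a library constant, for 100% of values. Of 65807 rows, 61 repeats of a symbol were dropped, and 11525 genes passed filterByExpr.

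Counts were tested with edgeR 4.0.16 in R 4.3.3 (quasi-likelihood F test, TMM factors, treatment only, 2-sided, Benjamini-Hochberg over all tested genes, threshold 0.05). SE was taken as the size of the log2 fold change divided by the root of F, and CPM are TMM-scaled. DESeq2 1.42.0, limma 3.58.1 and the other alternatives are in the closing section. In a simulation with 11408 genes, edgeR detected 66.7% of the 2-fold and 99% of the 4-fold differences. False calls made up 5.75% of all genes it called there. Only a small set of genes was changed in the simulation, as many up as down, and each gene had the same dispersion in both groups. Whether these rates hold for the real libraries was not tested. In the real data 40.8% of tested genes were called. The median SD of log2 CPM over all genes was 0.27 in DMSO and 0.09 in treated libraries. Order of levels used CPM per relative gene length in place of the planned TPM, because the listed TPM of the libraries sum to different totals.

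Members were matched by gene symbol alone, but they and the other gene lists were chosen with earlier results of these data known. Values per library are given for called members among the 4 smallest p of their role group and for ULK1, BECN1, ATG5, ATG7, MAP1LC3B, SQSTM1 and BNIP3, and for some others chosen after their values were seen, as were TSC1 and STK11. Other pathway genes are named where they were called and among the 3 smallest p of their sub-list, with TFEB, TFE3, MTOR and RHEB. Protein sequences were not analysed here.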

Additional observations from a re-analysis of the deposited data

How the results depend on the processing

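Of the 18 member calls, those of ULK1, AMBRA1, ATG7, SQSTM1 and OPTN held in all 17 alternatives, and that of GABARAPL1 in 16. On log2(TPM + 1) and log2(TPM + 0.1), tested with limma, all genes gave 713 and 691 higher and 2939 and 2935 called, members 3 and 2 higher, 3 and 3 lower and 6 and 5 called, and other pathway genes 0 and 0 higher and 12 and 12 called. On these scales the lipid kinase group had 1 and 1 lower, the ATG8 group 1 and 0 higher, and the cargo receptors 2 and 2 higher. The cause was not tested. With 1 replicate left out, all genes gave 1593 to 3549 lower and 3094 to 6640 called, members 3 to 10 lower and 11 to 26 called, other pathway genes 9 to 27 higher, 6 to 21 lower and 16 to 48 called, the lipid kinase group 1 to 2 lower and the cargo receptors 3 to 6 higher. An alternative chosen after seeing the data, the length trend removed and DMSO replicate 2 left out, gave 24 other pathway genes higher and 43 called. The replicate block gave 15 member calls (11 higher, 4 lower) without WIPI2, PINK1 and EPG5, and 4743 over all genes. Same-numbered libraries correlated at 0.04, 0.10 and 0.15 in their deviations, and every sample correlated best with its own number, a hint from the data and not from the design.

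Log2 fold changes changed sign for 18 genes, none past the threshold in the main analysis. With the length trend removed, ATG13 was at 0.21, RB1CC1 0.11, BECN1 0.08, ATG2A 0.05, ATG9A 0.05, ATG4B 0.13, ATG16L1 0.05 and STX17 0.0074. With DMSO replicate 2 left out as well, ATG13 was at 0.16, RB1CC1 0.25, BECN1 0.04, ATG2B 0.1, ATG3 0.05, ATG4A 0.09 and STX17 0.03. RB1CC1 was at 0.0023 with RLE factors, 0.0023 with DESeq2, 0.0052 with limma-voom and 0.002 with the replicate block, and STX17 at 0.00038 with RLE factors and 0.00021 with DESeq2. On the TPM scales PIK3C3 was at -0.13 and -0.18, ATG14 at -0.05 and -0.05, ATG5 at -0.18 and -0.19, BNIP3 at -0.02 and -0.05, and BNIP3L at -0.13 and -0.14. With 1 library left out, ranges were -0.19 to 0.12 for RB1CC1, -0.18 to 0.2 for ATG2A, -0.19 to 0.01 for ATG2B, -0.03 to 0.12 for PIK3C3, -0.2 to 0.02 for ATG3, -0.32 to 0.08 for ATG4A, -0.25 to 0.09 for ATG4B, -0.51 to 0.18 for GABARAP, -0.08 to 0.02 for STX17 and -0.3 to 0.05 for RHEB. GABARAP, with 8 to 28 counts per library, and PINK1, with 15 to 48, rest on few counts, and ULK2 and MAP1LC3A had too few to be tested.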

Other observations

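The genes below carry amino acid signals to mTORC1 at the lysosome, a choice made with their values in view. Over all tested genes 19.0% were called higher and 21.8% lower, and 26.9% of the shortest group were called higher. Several genes named here are short, with relative lengths of 0.131 for RRAGA, 0.305 for LAMTOR2, 0.482 for RRAGB and 0.552 for LAMTOR4. LAMTOR1, which fell, is short as well (0.572). Of 4 Rag GTPase genes, whose products recruit mTORC1, RRAGA, RRAGB and RRAGD rose by 0.53, 0.96 and 0.76 on the log2 scale (edgeR adjusted p = 0.0395, 0.00667 and 0.00587), and RRAGC at 0.40 did not pass (0.109). Of 5 genes of the Ragulator scaffold, which holds them on the lysosome, LAMTOR2 and LAMTOR4 rose by 0.81 and 1.22 (edgeR adjusted p = 0.00786 and 0.0121) and LAMTOR1 fell by 0.37 (0.0365). LAMTOR3 and LAMTOR5, at 0.38 and 0.47, did not pass (edgeR adjusted p = 0.214 and 0.0806). LAMTOR4 stood at 64, 29.5 and 76.6 CPM in DMSO and 128, 129 and 139 CPM in treated libraries, with DMSO replicate 2 lowest. FLCN, FNIP1 and FNIP2, regulators of the Rag GTPases, were at 0.19, 0.39 and -0.21 and did not pass (edgeR adjusted p = 0.559, 0.297 and 0.659).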
